A study of Mus musculus with 15 samples.

Results

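The genes described here carry out or regulate the synthesis of cholesterol and fatty acids in mouse B cells. They were chosen by name, as 33 genes of known function in these pathways, and each was found through the gene symbols attached to the array's probe sets. All 33 were on the array, among 16438 genes with a symbol, and 68 probe sets report them. Of these genes, 12 had 1 probe set and 21 had more, up to 5. They comprise 6 enzymes of the mevalonate steps, 10 enzymes from squalene to cholesterol, 5 sterol sensing genes, 3 genes of sterol efflux and 9 genes of fatty acid synthesis. The array files carry Msmo1 under the older name Sc4mol, Acaca under Acac and Fads1 under 0710001O03Rik.

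Cells build cholesterol from acetyl-CoA through mevalonate, the isoprenoids and squalene, and they build fatty acids from the same precursor through malonyl-CoA. Both arms are switched on by the SREBP transcription factors, which are held in the endoplasmic reticulum by SCAP and the INSIG proteins when sterol is plentiful and are released when it is scarce. When sterol accumulates, the LXR receptors instead raise the exporters ABCA1 and ABCG1. Lymphocytes that grow and divide are known to raise the SREBP programme, since new membrane needs both kinds of lipid.

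Transcripts were measured by oligonucleotide array in NP-binding B cells sorted from mouse spleen, NP being a hapten, and all donor mice carried the mVh186.2 heavy chain transgene, which favours NP binding. In the first screen, naive cells (3 arrays, A to C) and memory cells (4 arrays, D to G) both came from mVh186.2 transgenic mice. In the second screen, the naive cells (4 arrays, A to D) were sorted as AA4.1-negative, AA4.1 being a marker of immature B cells, from mVh186.2 transgenic Jk KO mice. Its memory cells (4 arrays, EK, FG, HJ and I) arose from mVh186.2 transgenic splenocytes moved into AM14/Vk8R transgenic recipients. Ages and the time after immunization are not given in the labels, which also do not say whether arrays EK, FG and HJ hold pooled mice. In the second screen the memory state, the transfer, the host and the Jk KO genotype therefore cannot be told apart. The screens also differed in sorter and labelling kit.

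B cell identity was checked on 8 B cell genes, among them Cd79a, Cd79b and Pax5. All 8 were measured in both screens and none was called, which here means an adjusted p under 0.05 by limma for memory against naive cells. Their summed intensity ran from 122058 to 137206 on the memory arrays of the second screen and from 124201 to 129628 on its naive arrays. In the first screen it ran from 143850 to 189568 on memory and from 173017 to 196245 on naive arrays, and 7 of the 8 genes had a negative change, up to -2.10 ± 0.75 for Pax5 (unadjusted p 0.0204, adjusted p 0.357). The summed plasma cell genes ran from 10677 to 14097 on naive and from 19407 to 21966 on memory arrays of the second screen, where of 7 genes tested Jchain rose and Mzb1 fell. The rise of that sum mostly follows Jchain, with mean log2 intensities of 10.01 on naive and 13.37 on memory arrays. Fkbp11 was level there on its brightest probe set (0.00 ± 0.09). The Fkbp11 probe set called higher in the first screen changed by 2.10 in the second, in a fit of all 15 arrays. Of 18 cell cycle genes tested in the second screen, 15 were lower in memory cells and none higher, and their sum ran from 19478 to 36333 on naive and from 13167 to 18003 on memory arrays. No cell cycle gene of 19 tested in the first screen was called, 18 had a negative change, and sums ran from 28879 to 36806 on naive and from 23583 to 29049 on memory arrays. Myeloid genes gave 1 higher and 3 lower of 11 in the second screen, with sums of 26231 to 30867 and 23585 to 26491, and T cell genes 1 higher (Cd2) and 4 lower of 8, with sums of 3223 to 3643 and 5695 to 6434. That T cell sum mostly follows Cd2, the brightest of the 8, with mean log2 intensities of 11.24 on naive and 12.49 on memory arrays. The 4 lower genes were Cd3d, Cd3g, Cd5 and Lck. In the first screen, sums on naive and memory arrays were 32101 to 37869 and 42071 to 48093 for plasma cell genes (2 of 6 higher), 45559 to 50761 and 44967 to 51620 for myeloid genes (none of 11 called), and 7204 to 8102 and 8954 to 10079 for T cell genes (1 of 6 lower). The myeloid genes Itgam, Cd14, C1qa, C1qc and Spp1 lay below the filter in both screens. The part of these lists in the results was not tested, and in such sorted pools fewer cells of a type and less RNA per cell cannot be told apart. Arrays C (naive) and G (memory) of the first screen stood apart from the rest of that screen. Both lay more than 1 log2 unit above every other array of their own group for 3 of 55 member probe sets past the filter (5.45%), of Scd2, Abca1 and Acly, against 4.5% of all 23813 probe sets that were so high or so low. First-screen arrays had median intensities of 103.4 to 153.7, and second-screen arrays of 24.99 to 26.02. First-screen values are given with all 7 arrays, followed by the changes without both for the genes described.

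Regulatory sequence near the starts of these genes is shown for 6 members, because the second screen below separates them. RefSeq windows on GRCm38.p6, from 250 bases before to 50 bases after the start that the table sets for a gene, were at hand for 26 of the 33 genes, in 34 windows. Abcg1, Fads1, Fdft1, Fdps, Scd1, Scd2 and Sqle had none. Each window was searched on both strands for CACNCCAC (a core form of the sterol regulatory element bound by SREBP), CCAAT (the box bound by NF-Y, a known partner of SREBP) and CACGTG (an E-box). Matches on either strand are in capitals, and the 3 motifs share no bases with each other here. Fasn, Elovl5, Ebp and Lss were higher in memory cells of the second screen and Abca1 was lower. Hmgcs1 was not called and holds the only sterol element core among the sterol synthesis windows. The windows lie at chr11:120824498-120824797 (minus strand), chr9:77917115-77917414 (plus strand), chrX:8193463-8193762 (minus strand), chr10:76531355-76531654 (plus strand), chr4:53159846-53160145 (minus strand) and chr13:119690101-119690400 (plus strand). The start used is not always the outer end of the gene in RefSeq: the Fasn gene on the minus strand reaches base 120825166, so its window lies inside the gene, and the windows of Abca1 and Lss are likewise set on a start inside the gene.
Fasn: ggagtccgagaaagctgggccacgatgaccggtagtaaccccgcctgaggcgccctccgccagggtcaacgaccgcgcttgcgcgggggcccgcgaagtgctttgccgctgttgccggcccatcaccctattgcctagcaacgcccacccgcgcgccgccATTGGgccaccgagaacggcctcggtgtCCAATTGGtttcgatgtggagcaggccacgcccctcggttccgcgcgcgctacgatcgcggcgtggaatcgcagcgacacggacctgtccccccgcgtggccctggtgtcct
Elovl5: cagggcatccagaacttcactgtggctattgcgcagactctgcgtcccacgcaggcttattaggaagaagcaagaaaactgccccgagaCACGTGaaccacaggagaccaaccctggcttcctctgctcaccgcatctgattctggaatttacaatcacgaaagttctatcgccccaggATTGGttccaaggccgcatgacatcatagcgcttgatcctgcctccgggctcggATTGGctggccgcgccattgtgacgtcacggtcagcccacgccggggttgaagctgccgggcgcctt
Ebp: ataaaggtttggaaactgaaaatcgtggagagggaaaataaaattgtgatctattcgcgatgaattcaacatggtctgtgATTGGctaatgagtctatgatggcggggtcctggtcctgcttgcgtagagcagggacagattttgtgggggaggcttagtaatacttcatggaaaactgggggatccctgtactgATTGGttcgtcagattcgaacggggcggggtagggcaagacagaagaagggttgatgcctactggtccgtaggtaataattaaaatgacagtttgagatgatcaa
Lss: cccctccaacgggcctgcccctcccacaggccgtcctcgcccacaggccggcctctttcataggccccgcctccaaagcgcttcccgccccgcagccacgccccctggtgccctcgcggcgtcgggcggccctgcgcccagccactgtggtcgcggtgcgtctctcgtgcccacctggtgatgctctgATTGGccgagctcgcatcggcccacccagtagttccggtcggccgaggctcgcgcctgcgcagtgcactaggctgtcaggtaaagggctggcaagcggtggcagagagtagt
Abca1: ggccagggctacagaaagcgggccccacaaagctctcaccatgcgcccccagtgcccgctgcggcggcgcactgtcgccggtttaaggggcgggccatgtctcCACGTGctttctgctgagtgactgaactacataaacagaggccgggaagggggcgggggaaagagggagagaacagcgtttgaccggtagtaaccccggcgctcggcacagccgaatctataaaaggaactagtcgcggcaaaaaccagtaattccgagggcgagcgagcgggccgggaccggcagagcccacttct
Hmgcs1: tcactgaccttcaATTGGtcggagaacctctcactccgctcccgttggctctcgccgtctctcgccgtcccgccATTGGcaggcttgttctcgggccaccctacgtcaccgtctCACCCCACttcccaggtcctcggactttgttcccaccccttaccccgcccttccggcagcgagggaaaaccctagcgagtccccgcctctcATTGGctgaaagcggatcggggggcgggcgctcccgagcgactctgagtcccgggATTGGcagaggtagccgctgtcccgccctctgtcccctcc
Fasn, the fatty acid synthase, has 3 NF-Y boxes here, of which the 2 nearest that start overlap on opposite strands. Elovl5 and Ebp have 2 NF-Y boxes each, Lss has 1, Hmgcs1 has 4, and Elovl5 and Abca1 hold an E-box.

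Across the members, the NF-Y box was present in 21 of 34 windows (61.8%), against 37.4% of all 32851 RefSeq windows of this length. It was present in 13 of 16 windows of the cholesterol enzymes (81.2%) and in 3 of 6 windows of fatty acid genes (50%). The E-box was in 8 of 34 member windows (23.5%), against 7.15% of all windows. The sterol element core was in 2 member windows (5.88%), those of Hmgcs1 and Insig1, against 6.24% of all windows. None of the 11 windows of the genes that rose in the second screen held the sterol element core, and 8 of them (72.7%) held an NF-Y box. These matches describe letters in the windows only.

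In the second screen, fatty acid synthesis genes were higher in memory cells and the cholesterol enzymes were split. Of 30 members measured above the filter, 12 rose and 2 fell. Over everything tested, 10.5% rose and 16% fell, and the median change was -0.02 on the log2 scale against 0.11 over the 30 members. All 6 fatty acid genes that could be tested rose, with a median change of 0.36. Of the 16 cholesterol enzymes, 4 rose, 1 fell and 11 were not called, with a median of 0.08. The count of 12 went to 6 without naive array A and to 5 without naive array C or memory array EK or FG. The values below are log2 intensities, and each change is memory minus naive on that scale, given with its standard error in limma's fit of 4 arrays against 4.

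**Figure D1:**
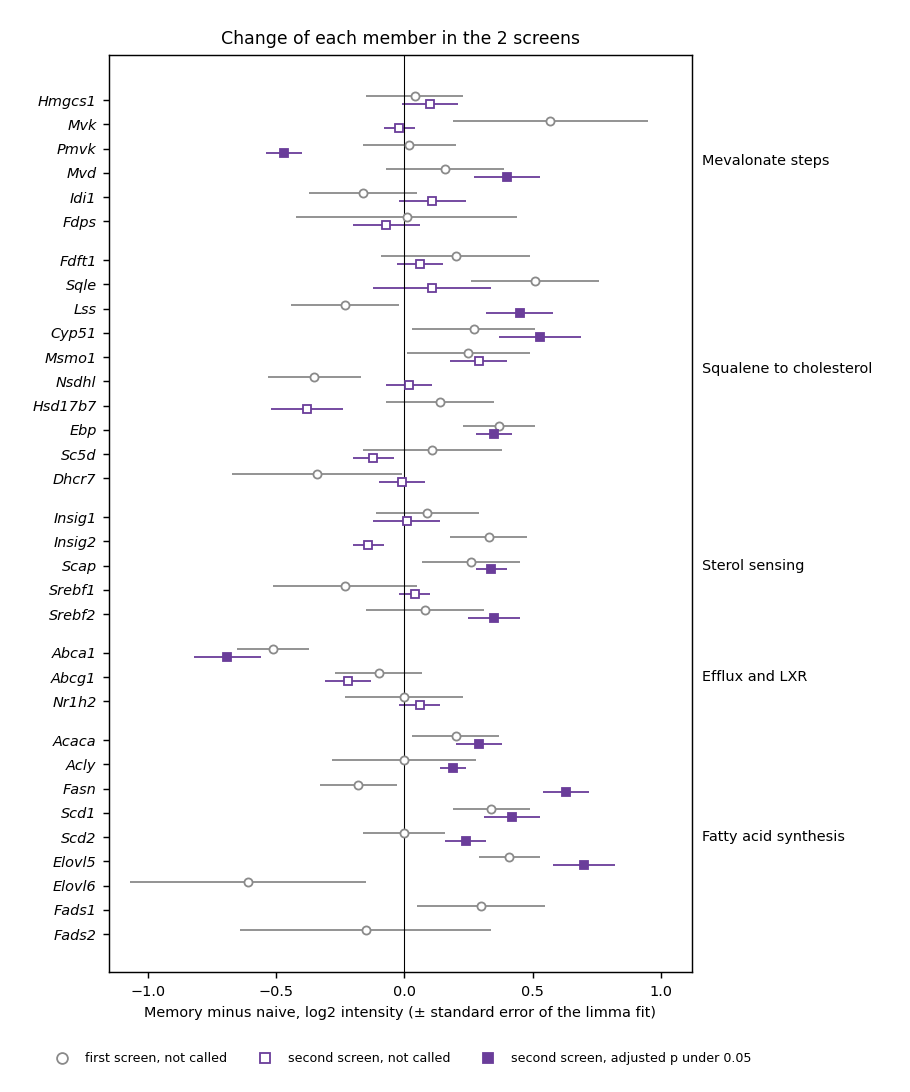
Change of each of the 33 members, memory minus naive, in log2 intensity; points are estimates and bars their standard errors in limma, grey circles for the first screen (3 naive and 4 memory arrays) and purple squares for the second (4 and 4), filled where the adjusted p is under 0.05. All 6 fatty acid genes tested in the second screen lie to the right of 0, Pmvk (-0.47) and Abca1 (-0.69) lie to the left, and no first-screen point is filled.

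The fatty acid arm is described first, in the order of the pathway. Acly, the ATP citrate lyase that makes cytosolic acetyl-CoA, read 12.73, 12.72, 12.66 and 12.64 on naive arrays A to D and 12.96, 12.77, 12.87 and 12.91 on memory arrays EK, FG, HJ and I. The groups did not overlap, and the change was 0.19 ± 0.05 (adjusted p 0.023). With every probe set tested, another Acly probe set rose by 0.28 ± 0.07 (adjusted p 0.026). A further one was not called (0.07 ± 0.12, adjusted p 0.737). Acaca, the acetyl-CoA carboxylase that makes malonyl-CoA, read 8.45, 8.34, 8.24 and 8.44 on the naive arrays and 8.76, 8.72, 8.72 and 8.45 on the memory arrays. Memory array I was level with the highest naive array, and the change was 0.29 ± 0.09 (adjusted p 0.0387).

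Fasn, which builds palmitate from malonyl-CoA, read 8.62, 8.70, 8.47 and 8.62 on the naive arrays and 9.39, 9.37, 9.03 and 9.16 on the memory arrays. Every memory array lay above every naive array, with a change of 0.63 ± 0.09, which is 1.55-fold (adjusted p 0.00124). Elovl5, an elongase of polyunsaturated fatty acids, read 11.72, 11.74, 11.63 and 11.27 on the naive arrays and 12.23, 12.43, 12.09 and 12.41 on the memory arrays. The groups were again apart, and its change of 0.70 ± 0.12, or 1.62-fold (adjusted p 0.00226), was the highest estimate among the 30 members. Its other probe set rose as well, by 0.62 ± 0.11 (adjusted p 0.00399 with every probe set tested).

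Scd1 and Scd2 are stearoyl-CoA desaturases, which put the double bond into monounsaturated fatty acids. Scd1 read 12.80, 12.98, 12.86 and 12.51 on the naive arrays and 13.00, 13.38, 13.15 and 13.27 on the memory arrays, a change of 0.42 ± 0.11 (adjusted p 0.0227). The lowest memory array, EK, lay just above the highest naive array, B. The other Scd1 probe set rose by 0.61 ± 0.09 (adjusted p 0.00163 with every probe set tested). Scd2 read 10.26, 10.07, 10.01 and 10.07 on the naive arrays and 10.42, 10.47, 10.22 and 10.29 on the memory arrays. Memory array HJ lay below naive array A, and the change was 0.24 ± 0.08 (adjusted p 0.0422). The other measured Scd2 probe set, which was dimmer, was not called (0.13 ± 0.14 with every probe set tested). The elongase Elovl6 and the desaturases Fads1 and Fads2 lay below the filter in this screen and were not tested.

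Fasn and Elovl5 stayed below the 0.05 threshold under all 18 other settings tried, their highest adjusted p being 0.00509 and 0.00845. The count of 6 fatty acid genes fell to 3 without naive array C, or without memory array EK, FG or I. The calls of Acly, Acaca, Scd1 and Scd2 were lost in 5, 8, 4 and 11 of the 18 settings.

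In the cholesterol arm, the enzymes that rose act on both sides of squalene. Mvd, which decarboxylates mevalonate diphosphate, read 5.94, 5.82, 6.01 and 6.10 on the naive arrays and 6.67, 6.50, 6.11 and 6.21 on the memory arrays, a change of 0.40 ± 0.13 (adjusted p 0.0494). Memory array HJ and naive array D differed by the second decimal only. Lss, the lanosterol synthase that closes the sterol rings, read 7.29, 7.79, 7.56 and 7.37 on the naive arrays and 7.92, 8.20, 7.93 and 7.75 on the memory arrays. Memory array I lay below naive array B, and the change was 0.45 ± 0.13 (adjusted p 0.034). The other measured Lss probe set was not called (0.23 ± 0.19, adjusted p 0.443 with every probe set tested).

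Cyp51, the lanosterol demethylase, read 7.85, 8.34, 7.88 and 8.10 on the naive arrays and 8.80, 8.71, 8.62 and 8.16 on the memory arrays, a change of 0.53 ± 0.16 or 1.45-fold (adjusted p 0.0359). Here too memory array I lay below naive array B. Ebp, the sterol isomerase, read 9.13, 9.12, 9.16 and 9.13 on the naive arrays and 9.51, 9.58, 9.31 and 9.56 on the memory arrays. The naive arrays were nearly equal and all memory arrays were higher, with a change of 0.35 ± 0.07 (adjusted p 0.00528). Pmvk, the phosphomevalonate kinase, went the other way. It read 8.51, 8.66, 8.57 and 8.68 on the naive arrays and 8.14, 8.19, 8.19 and 8.01 on the memory arrays, so that every memory array was lower, and it fell by 0.47 ± 0.07 on the log2 scale (adjusted p 0.00135). Its naive level was 1.39-fold the memory level.

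Ebp and Pmvk kept their calls under all 18 other settings. The calls of Mvd, Lss and Cyp51 were lost in 11, 9 and 8 of them. The count of 4 enzymes that rose fell to 1 without naive array A or C or memory array EK or FG, and to 2 without memory array HJ.

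**Figure D2:**
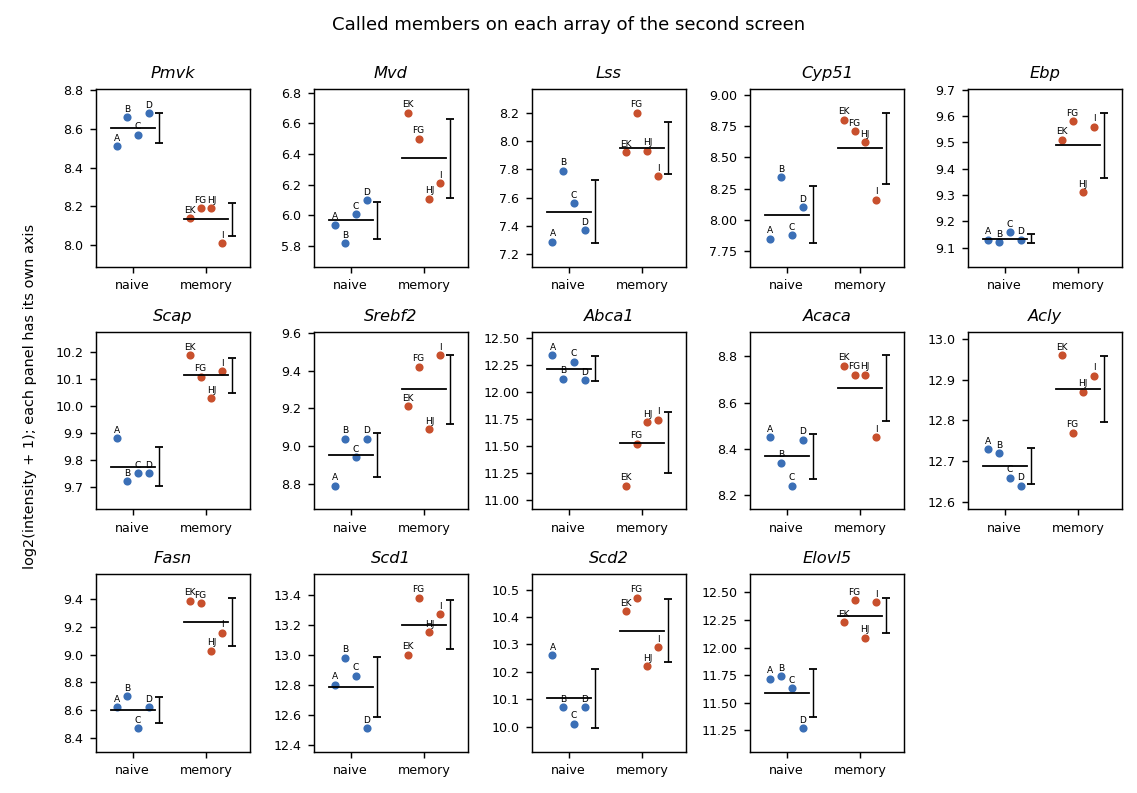
Log2(intensity + 1) of the 14 members called in the second screen on each naive (blue) and memory (red) array, labelled with the array's letters; the bar is the mean, the whisker 1 SD (n = 4 arrays), and each panel has its own axis, which does not start at 0. Fasn, Elovl5, Ebp, Scap, Scd1, Acly, Srebf2 and Mvd show memory arrays above all naive arrays, Mvd by the second decimal only. Pmvk and Abca1 show memory arrays below, and Lss, Cyp51, Acaca and Scd2 overlap.

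The remaining 11 cholesterol enzymes were not called. Nearest the threshold, on the brightest probe set of each gene, were Hsd17b7, a sterol ketoreductase (-0.38 ± 0.14, adjusted p 0.0742), and Msmo1, a sterol methyl oxidase (0.29 ± 0.11, adjusted p 0.0911). The other 9 had changes between -0.12 and 0.11 on their brightest probe sets. Hmgcs1, which makes HMG-CoA, gave 0.10 ± 0.11. Sqle, the squalene epoxidase, gave 0.11 ± 0.23, and Idi1, which isomerizes isopentenyl diphosphate, gave 0.11 ± 0.13. Fdft1, the squalene synthase, gave 0.06 ± 0.09. Nsdhl, a sterol decarboxylating dehydrogenase, gave 0.02 ± 0.09. Dhcr7, which carries out the last reduction to cholesterol, gave -0.01 ± 0.09, and the mevalonate kinase Mvk gave -0.02 ± 0.06. Fdps, the farnesyl diphosphate synthase, gave -0.07 ± 0.13, and the desaturase Sc5d gave -0.12 ± 0.08. Their adjusted p-values on these probe sets were 0.327 or more, and Sqle had the widest standard error. With every probe set tested, another Sc5d probe set gave -0.39 ± 0.14 (adjusted p 0.0768). Another of Fdft1 gave 0.25 ± 0.11 (adjusted p 0.148) and another of Idi1 gave 0.28 ± 0.22 (adjusted p 0.392). Further ones of Hmgcs1 and Mvk gave -0.17 to 0.13. Without naive array D, Msmo1 (0.36, adjusted p 0.0392) and Hsd17b7 (-0.46, adjusted p 0.0374) were called, and Msmo1 was also called without memory array I (0.36, adjusted p 0.0428).

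The cholesterol enzymes varied between arrays of one group in a shared order. Among memory arrays, EK was the highest for 8 of the 16 enzymes and FG for 7, whereas array I was the lowest for 10 (62.5%). Over everything tested, array I was the lowest for 30.1%. EK exceeded I in 14 of the 16 enzymes (87.5%), by a median of 0.27, against 49.3% and a median of 0 over everything tested. The gap was 0.63 for Cyp51, 0.59 for Idi1, 0.54 for Sqle and 0.49 for Hmgcs1, and it was -0.04 for Ebp. Among naive arrays, B was the highest for 9 enzymes (56.2%, against 22.4% over everything tested) and A the lowest for 9. The order was not particular to these enzymes. Of the cell cycle genes, Mki67 read 9.58 on naive A, 11.63 on naive B, 8.78 on memory EK and 7.91 on memory I. Ccna2 was also highest on naive B (9.70) but read 6.41 on EK and 6.47 on I. Ranks over the cell cycle list were not counted. This order within groups is a description, with no test. Sqle shows its size. It read 6.45, 7.52, 6.63 and 6.74 on the naive arrays and 7.32, 6.94, 6.74 and 6.78 on the memory arrays, a wider range within naive cells than between the group means of 6.83 ± 0.47 and 6.94 ± 0.27 (SD, n = 4).

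**Figure D3:**
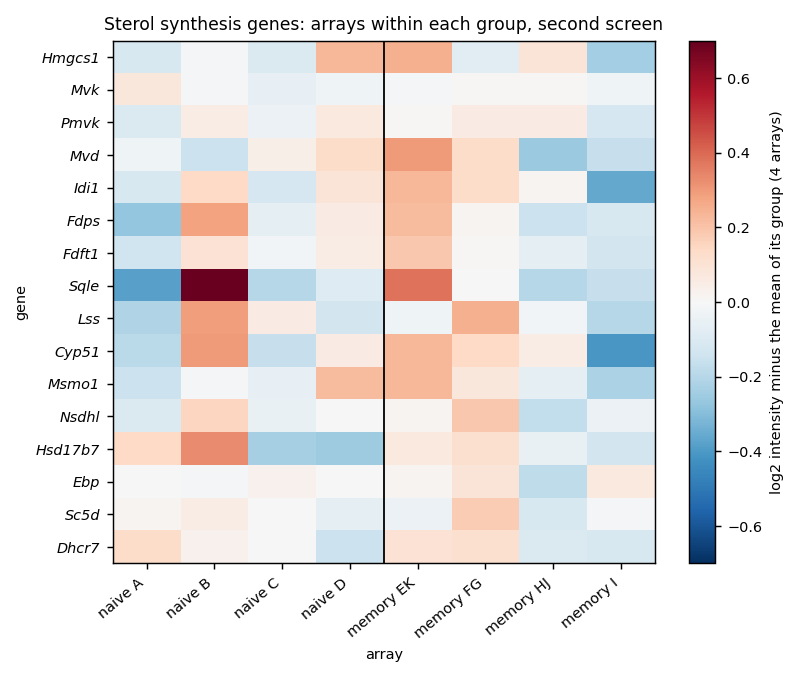
Log2 intensity of the 16 cholesterol synthesis enzymes on each array of the second screen, minus the mean of the array's own group of 4; red is above and blue below that mean, and the black line separates naive from memory arrays. Naive B and memory EK are mostly red, naive A and memory I mostly blue, while Mvk and Ebp vary little.

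The sensing genes followed neither arm as a whole. Scap, the escort that carries SREBP to the Golgi, read 9.88, 9.72, 9.75 and 9.75 on the naive arrays and 10.19, 10.11, 10.03 and 10.13 on the memory arrays. All memory arrays were above all naive arrays, and the change was 0.34 ± 0.06 (adjusted p 0.00258). Srebf2, which encodes the SREBP that mainly drives cholesterol synthesis, read 8.79, 9.04, 8.94 and 9.04 on the naive arrays and 9.21, 9.42, 9.09 and 9.48 on the memory arrays. The groups were apart, narrowly at memory array HJ, with a change of 0.35 ± 0.10 (adjusted p 0.0323). The second measured probe sets of Scap and Srebf2 rose as well, by 0.46 ± 0.10 and 0.24 ± 0.07 (adjusted p 0.00781 and 0.0388 with every probe set tested). The call of Srebf2 was lost in 7 of the 18 other settings (adjusted p up to 0.469), and that of Scap in 1.

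Srebf1, which encodes the SREBP forms that mainly drive fatty acid synthesis, was level. It read 9.52, 9.41, 9.46 and 9.60 on the naive arrays and 9.63, 9.56, 9.52 and 9.45 on the memory arrays, a change of 0.04 ± 0.06 (adjusted p 0.664). Insig1, the retention protein and itself a target of SREBP, read 8.10, 8.03, 8.00 and 7.93 on the naive arrays and 8.35, 7.87, 8.14 and 7.73 on the memory arrays. Its memory arrays lay on both sides of the naive ones, and the change was 0.01 ± 0.13 (adjusted p 0.962). Insig2, its relative, gave -0.14 ± 0.06 (adjusted p 0.12).

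Of the efflux genes, Abca1 fell. This exporter of cholesterol to lipoproteins, a target of LXR, read 12.34, 12.12, 12.28 and 12.11 on the naive arrays and 11.13, 11.52, 11.72 and 11.74 on the memory arrays. Every memory array was lower, EK the lowest, and it fell by 0.69 ± 0.13 on the log2 scale (adjusted p 0.00466), the naive level being 1.61-fold the memory level. All 3 Abca1 probe sets fell, the other 2 by 1.00 ± 0.27 and 1.05 ± 0.33 (adjusted p 0.0243 and 0.0481 with every probe set tested). Under all 18 other settings the call of Abca1 remained. Abcg1, the exporter that acts beside it, gave -0.22 ± 0.09 (adjusted p 0.124), with overlapping arrays. Nr1h2, which encodes LXR beta, gave 0.06 ± 0.08.

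Genes of the same pathways that are not among the 33 were counted from a list of 36. In the second screen 27 were tested, 5 rose and 4 fell, with a median change of 0. Over everything tested, 10.5% rose and 16% fell. Of 16 sterol genes in this list, 3 rose and 1 fell, with a median of 0.03. Its 11 fatty acid genes did not follow the fatty acid members, since 2 rose and 3 fell, with a median of -0.10. Lipa, the lysosomal lipase that frees cholesterol from its esters, rose from 9.13 ± 0.07 to 9.84 ± 0.12 (SD, n = 4), a change of 0.71 ± 0.07 (adjusted p 0.00013). Mecr, an enoyl reductase of mitochondrial fatty acid synthesis, rose by 0.47 ± 0.08 (adjusted p 0.00337). Mcat, a transferase of the same mitochondrial route, fell by 0.33 ± 0.07 on the log2 scale (adjusted p 0.00925). Mid1ip1, an activator of acetyl-CoA carboxylase, fell by 0.35 ± 0.07 (adjusted p 0.00775), and Mbtps1, the protease that makes the first cleavage of SREBP, fell by 0.19 ± 0.04 (adjusted p 0.0119). None of 31 tested in the first screen was called, and 5 had an unadjusted p under 0.05.

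The first screen called none of the 33 members, where 0.638% of everything tested rose and 0.19% fell. Of the members, 5 had an unadjusted p under 0.05, 4 of them higher in memory cells, against 9.93% of everything tested. The median change of the members was 0.08 against 0.02 over everything tested. The median standard error was 0.26 over everything tested in this screen and 0.09 in the second.

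Among those 5, Ebp, Elovl5, Abca1 and Insig2 had arrays that did not overlap, and Scd1 overlapped. Outside them, Sqle did not overlap either (0.51 ± 0.25, unadjusted p 0.0727). How often arrays did not overlap over everything tested was not counted in either screen, so nothing is drawn from it. Ebp read 10.51, 10.61 and 10.78 on naive arrays A to C and 11.15, 11.07, 10.94 and 10.85 on memory arrays D to G, a change of 0.37 ± 0.14 (adjusted p 0.388). Elovl5 read 11.77, 12.04 and 11.95 on the naive arrays and 12.39, 12.20, 12.39 and 12.33 on the memory arrays, a change of 0.41 ± 0.12 (adjusted p 0.235). The other Elovl5 probe set, about as bright, gave a smaller change of 0.22 ± 0.16 (adjusted p 0.819 with every probe set tested). Abca1 read 12.83, 12.93 and 13.20 on the naive arrays and 12.41, 12.64, 12.62 and 12.27 on the memory arrays, a change of -0.51 ± 0.14 (adjusted p 0.205). In these 3 genes the estimate had the sign seen in the second screen. Insig2 did not. It read 9.80, 9.78 and 9.79 on the naive arrays and 10.25, 9.93, 10.05 and 10.25 on the memory arrays, a change of 0.33 ± 0.15 (adjusted p 0.5), and in the second screen its memory arrays (9.67 to 9.86) lay below all naive ones (9.88 or higher).

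Scd1 read 13.50, 13.59 and 14.08 on the naive arrays and 13.93, 14.07, 14.15 and 14.12 on the memory arrays, so that only naive array C reached the memory values (0.34 ± 0.15, adjusted p 0.489). With naive array C and memory array G set as a block, 2 members were called, Elovl5 at 0.41 (adjusted p 0.0453) and Abca1 at -0.51 (adjusted p 0.0496). With both arrays left out, 2 other members were called, Ebp at 0.49 (adjusted p 0.0329) and Scd1 at 0.50 (adjusted p 0.0195). Elovl5 was then 0.24 (adjusted p 0.399) and Abca1 -0.33 (adjusted p 0.0939), neither called, while under the block Ebp had an adjusted p of 0.116 and Scd1 of 0.0903. Insig2 gave 0.29 without both arrays. These settings also called more of everything tested, 707 of 15828 features with the block and 838 of 16401 with both arrays left out.

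The regulators were spread widely in this screen. Srebf1 read 11.28, 11.42 and 10.91 on the naive arrays and 11.27, 11.23, 11.23 and 10.16 on the memory arrays, where array G alone was far below the rest (-0.23 ± 0.28, adjusted p 0.872, and 0.04 without G). Srebf2 read 10.29, 10.53 and 10.72 on the naive arrays and 10.57, 10.54, 10.13 and 11.15 on the memory arrays (0.08 ± 0.23, adjusted p 0.954). Insig1 read 8.72, 8.85 and 9.10 on the naive arrays and 9.06, 9.02, 8.59 and 9.23 on the memory arrays (0.09 ± 0.20, adjusted p 0.944). None of these 3 genes separated the groups. Without naive C and memory G the changes were -0.11 for Srebf1, 0.00 for Srebf2 and 0.11 for Insig1. Acly read 12.08 on naive array C and 11.87 on memory array G, the other arrays lying between 12.76 and 12.91, and its change was 0.00 ± 0.28 with and -0.01 without these 2 arrays.

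**Figure D4:**
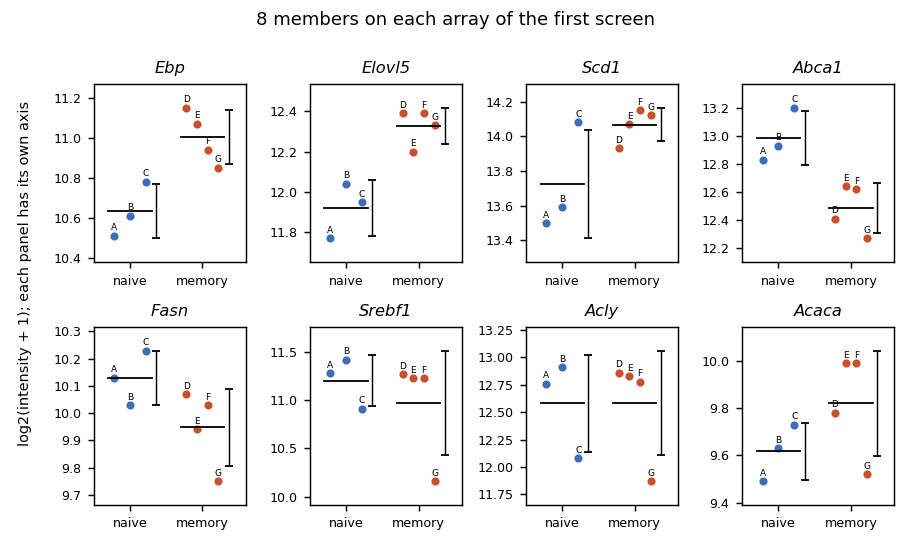
Log2(intensity + 1) of 8 members on each naive (blue) and memory (red) array of the first screen, labelled with the array's letter; the bar is the mean, the whisker 1 SD (n = 3 naive and 4 memory arrays), and each panel has its own axis, which does not start at 0. Ebp and Elovl5 memory arrays lie above and Abca1 memory arrays below all naive arrays, Fasn memory arrays reach no higher than 10.07, and for Srebf1 and Acly array G lies far below the other memory arrays.

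The other members of the first screen had changes from -0.61 for Elovl6 to 0.57 for Mvk, with standard errors of 0.46 and 0.38. For the cholesterol enzymes called in the second screen, the first-screen estimates were 0.02 ± 0.18 for Pmvk, 0.16 ± 0.23 for Mvd, -0.23 ± 0.21 for Lss and 0.27 ± 0.24 for Cyp51. Scap gave 0.26 ± 0.19, Acaca 0.20 ± 0.17 and Scd2 0.00 ± 0.16. Fads1 gave 0.30 ± 0.25 and Fads2 -0.15 ± 0.49. Without naive C and memory G these became 0.09 for Pmvk, -0.06 for Mvd, -0.04 for Lss and 0.24 for Cyp51. Likewise Scap became 0.12, Acaca 0.36, Scd2 -0.03, Fads1 0.21, Fads2 0.12, Elovl6 -0.79 and Mvk 0.92, none of them called.

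Fasn differed between the screens. In the first screen it read 10.13, 10.03 and 10.23 on the naive arrays and 10.07, 9.94, 10.03 and 9.75 on the memory arrays, a change of -0.18 ± 0.15 (adjusted p 0.768) with overlapping arrays, and of -0.07 without naive C and memory G. Its change was 0.82 ± 0.16 greater in the second screen, a difference tested in a fit of all 15 arrays (adjusted p 0.0204). Fasn was the only one of 30 members called for a difference, where 1.31% of everything tested was called. The call was lost without naive array C of the second screen (0.77, adjusted p 0.055), without memory array EK (0.77, adjusted p 0.0572) and when each array was centred on its median (1.00, adjusted p 0.0806). Next in order, and not called, were Insig2 (-0.47 ± 0.13, adjusted p 0.098), Lss (0.68 ± 0.23, adjusted p 0.196) and Pmvk (-0.49 ± 0.17, adjusted p 0.209). Pmvk was called without memory array G of the first screen (-0.60, adjusted p 0.0274), and Mvk without its naive array C (-2.80, adjusted p 0.00663). With all arrays the Mvk difference was -1.86 ± 0.77 (adjusted p 0.32). It rests on a dimmer probe set than the first screen's own fit, which changed by 1.84 there and -0.02 in the second. For Ebp the difference was -0.01 ± 0.14 and for Scd1 0.07 ± 0.19. The origin of the cells, sorter, labelling kit and processing all differ between the screens and cannot be told apart.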

How the data were processed

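The deposited value of each of 15 arrays, for 45101 probe sets, is an intensity on a linear scale. The authors used GCRMA for the second screen, per the submitters' processing notes; for the first, no software is given in the labels. The authors' ratio and p-value in the deposited tables were not used.

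Of these probe sets, 64 controls were left out and 12878 had no symbol; 13922 were brought to current names and 1473 symbols had no match. Values were taken as log2(intensity + 1), which understates the change of dim genes. Probe sets above their screen's median on at least 3 (first) or 4 (second) arrays were kept, and the brightest probe set of each gene was tested. Those without a symbol were tested singly, which gave 15828 and 14657 features. For Hmgcs1, Mvk and Srebf2 the screens' brightest probe sets differ; the difference between screens used 1 common probe set for each of 12933 features.

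Memory and naive cells were compared in each screen with limma 3.58.1 under R 4.3.3. It used lmFit, then eBayes with a trend on intensity. P-values were adjusted over all features by the Benjamini-Hochberg method, and features under 0.05 are termed called. The fit was tested on simulated data. Python 3.11.15, pandas 2.3.3, NumPy 2.4.6 and Matplotlib 3.10.9 were used for reading and figures. The number of arrays limits the precision. The labels call the replicates biological.

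Members and lists were chosen with earlier results of these data known. Every member is named; values of each array are given for called members and for Srebf1, Srebf2, Insig1 and Fasn; of the other pathway genes, the 6 called ones with the smallest adjusted p were to be named, and some are not reported here. Sqle, Pax5 and the first-screen values of Ebp, Elovl5, Insig2, Scd1, Abca1 and Acly were singled out after their values were seen. The lists of B cell, plasma cell, myeloid, T cell, erythroid and cell cycle genes describe the samples. Of 6 erythroid genes tested, 1 rose and 1 fell in the second screen (sums 3132 to 7407 on naive and 2231 to 6363 on memory arrays), and 1 fell in the first (4402 to 8792 and 8905 to 33101).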

Additional observations from a re-analysis of the deposited data

Results flagged for a closer look

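Among 93 groups of 4 arrays, 1 for each member and group, 6 had a single array far from the others by Dixon's test. Chance gives such an array in about 1 in 20 groups. In the first screen, Fdps read 7.38 on memory array F, where the others read 8.84 to 9.01, and Elovl6 read 5.68 on the same array against 7.23 to 7.49. On memory array G, Sc5d read 9.38 against 8.49 to 8.62, Srebf1 read 10.16 against 11.23 to 11.27, and Acly read 11.87 against 12.78 to 12.86. In the second screen, Acaca read 8.45 on memory array I against 8.72 to 8.76. The memory minus naive change of Fasn was 0.82 greater in the second screen than in the first by the test of that difference.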

How the results depend on the processing

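No paired analysis was possible because naive and memory arrays of a screen carry different letters. Features called in the first screen numbered 131, and 65 with median centring, 844 with all 15 arrays in 1 fit, 707 with a block for naive C and memory G, 838 with both left out, and 63 to 153 leaving out each array. Members called there numbered 0, and 1 (Ebp) in the 15-array fit, 2 with the block and 2 with both left out. The 3892 calls of the second screen became 1830 in the 15-array fit. Its 12 members that rose became 5 with no filter, 4 in the 15-array fit and 5 to 10 leaving out each array. The 4 cholesterol enzymes became 1, 1 and 1 to 4, and the 6 fatty acid genes 3, 3 and 3 to 5. Calls that differed between screens numbered 170, then 270 with no filter, 57 with median centring and 76 to 548 leaving out each array; members among them numbered 0 with median centring and 0 to 2 leaving out each array. Of those 170, 72 were positive, against 43 of 57 with median centring, which shifted the median first-screen change by -0.20.

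Signs that changed belonged to estimates that were not called. In the first screen, Pmvk gave -0.01 with quantile normalization, -0.18 with median centring, -0.01 with the block and -0.05 to 0.13 leaving out each array. Mvd gave -0.03 with median centring, 0 with the mean of probe sets, -0.06 with both arrays left out and -0.04 to 0.31 leaving out each array. Lss gave 0.36 with the mean of probe sets. With median centring Insig1 gave -0.11, Srebf2 -0.11 and Scd2 -0.19. Leaving out each array gave 0 to 0.22 for Insig1, -0.38 to 0.04 for Srebf1, -0.10 to 0.24 for Srebf2, -0.25 to 0.24 for Acly and -0.08 to 0.15 for Scd2. Acly gave 0.04 with quantile normalization and 0.11 with the mean of probe sets, and Scd2 -0.02 with the block and -0.03 with both arrays left out. In the second screen Insig1 gave 0 with median centring and -0.10 to 0.11 leaving out each array. Among the members not given here, 8 first-screen estimates, 6 second-screen estimates and 12 differences changed sign under some setting, and none of these was called when it did. The cause was not tested. The difference between screens computed from 2 separate fits was chosen after seeing the data. The spread of the 7 first-screen arrays limits what can be detected there.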
